A study of Mus musculus with 12 samples.

Results

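Trained mice labelled Mbnl2 KO were compared with house controls of the same genotype. The comparison used 6 of the 12 RNA sequencing libraries of the study, 3 labelled Mbnl2 KO and trained against 3 labelled Mbnl2 KO and house control, and every gene counted in them. The count files held 24421 gene symbols, of which 15622 passed the filter on low counts and were tested. All 12 libraries came from the dorsal hippocampus of male 129sv/C57BL/6j mice aged 4 to 5 months, each with its own animal number, and were made from polyadenylated RNA. The other 6 libraries were 3 trained and 3 house control Mbnl2 WT mice and are given here only beside the KO values. No label says what the mice were trained on, how long before dissection, or which allele and part of Mbnl2 was targeted, so KO stands below for the libraries so labelled. Library numbers 1 to 3 follow accession order and pair no mice between groups.

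Mbnl2 encodes a muscleblind-like protein, an RNA-binding regulator of alternative splicing that is prominent in the brain and is sequestered by repeat RNA in myotonic dystrophy. Neuronal firing lets calcium into the cell, and kinases then activate transcription factors such as CREB and SRF that already sit at their target genes. The first genes switched on, the immediate early genes, need no new protein: many encode transcription factors (Fos, Egr and Nr4a families) and some act at the synapse (Arc, Homer1). A later set encodes growth factors, enzymes and synaptic proteins, and in the hippocampus both sets are widely used as a record of recent neuronal activity during exploration and learning.

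The 6 KO libraries held between 20675350 and 27427076 counts. Values below are CPM, read counts divided by library size, on library sizes scaled by the trimmed mean of M values (TMM), and 3 counts correspond to 0.109 to 0.145 CPM in these libraries, a floor that covers counting error only. Fold changes are log2 ratios of trained over house control with their standard error (SE), from 1 edgeR quasi-likelihood fit to all 12 libraries. Some KO libraries stood apart in tissue markers. The summed level of 16 striatum and septum markers was 1725 CPM in the second house control library and 2132 CPM in the second trained library, against 430 to 562 CPM in the other 4. The third house control library had the highest thalamus marker sum (656 CPM against 194 to 386 CPM in the other 5) and the highest Gfap. Hippocampal markers were well above the floor in every library: 15 dentate granule markers summed to 840 to 1842 CPM and 8 CA1 markers to 508 to 840 CPM. In whole-tissue RNA, fewer cells of a type and less RNA per cell cannot be told apart.

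Mbnl2 (chromosome 14, 120275669 to 120431697, mm10) did not separate the KO groups. Its level was 488, 470.1 and 454 CPM in KO house controls and 509, 473 and 542 CPM in KO trained mice, a log2 fold change of 0.11 ± 0.07 (SE). The 6 WT libraries lay lower, at 315 to 365 CPM, so the gene-level count does not check the genotype labels. Mbnl1, another muscleblind gene, was at 107, 112 and 96.2 CPM against 117, 109.8 and 102 CPM (house control against trained, the order used throughout). Mbnl3 stayed at or below 0.731 CPM in the KO libraries, with 0 counts in 1 of them.

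No gene passed a Benjamini-Hochberg adjusted p of 0.05 in the comparison of KO trained with KO house control: edgeR called 0 of 15622 (0%), with a smallest adjusted p of 0.99998. At an unadjusted p below 0.05 there were 152 genes higher in trained mice (0.973% of those tested) and 319 lower (2.04%). Both directions together were a smaller share than the 0.05 that this threshold passes when no gene differs. All 3 trained libraries lay above all 3 house control libraries for 521 genes (3.34%) and below them for 710 (4.54%). Across all genes tested the median log2 fold change was -0.0031. Without the third house control and second trained libraries, edgeR again called 0, with 258 higher and 383 lower at an unadjusted p below 0.05. That set keeps the second house control library but not the second trained library, both high in striatum and septum markers. The median log2 fold change of those markers was -1.85, against 0.22 with all 6 libraries, and that of oligodendrocyte markers -0.98 against -0.53. The thalamus marker median was instead less uneven, -0.20 against -0.70. Values below without this pair share that imbalance. Without both libraries numbered 2, edgeR also called 0, with 156 higher and 210 lower. The authors' deposited table for KO trained against KO house control rests on all 6 KO libraries. It holds 6 genes higher (0.0307% of 19558 with an adjusted p) and 8 lower (0.0409%) at an adjusted p below 0.05. DESeq2 run here gave 4 higher and 3 lower with the 12 libraries and 7 higher and 9 lower with the 6. An exact permutation of 3 against 3 libraries has 10 splits and cannot give a two-sided p below 0.1. Groups without overlap have that p, and such genes of both directions together were a smaller share than 0.1 of those tested.

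The genes that stood out on the higher side were activity-induced transcription factors. Fos, the partner of Jun proteins in the AP-1 factor, was at 6.32, 6.70 and 4.73 CPM in KO house controls and 19.7, 19.1 and 20.5 CPM in KO trained mice (means 5.92 ± 1.05 and 19.8 ± 0.714 CPM, SD, n = 3 each). The trained values lay close together and above every house control value, a log2 fold change of 1.74 ± 0.40 (SE). Fos had the smallest adjusted p in the authors' deposited table (7.66e-18), against an unadjusted p of 0.00142 in edgeR. Egr2, a zinc finger factor of the Egr family, had the largest log2 fold change of the genes on the activity lists: 0.753, 0.724 and 0.0965 CPM in KO house controls and 4.06, 2.90 and 3.65 CPM in KO trained mice, a log2 fold change of 2.72 ± 0.57. Its lowest house control value rests on 2 counts, under the floor.

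Promoter sequences of 4 of these genes are shown because the data turn on genes that were higher together, and because a CREB site is the textbook route from calcium to this gene class. They are RefSeq windows of 300 bases (build GRCm38.p6), from 250 bases before to 50 after the annotated start, written 5′ to 3′ on the gene's strand. Capitals mark the CREB half-site TGACG on either strand (CGTCA when read on the strand shown).
Fos (chr12:85473640-85473939, plus strand): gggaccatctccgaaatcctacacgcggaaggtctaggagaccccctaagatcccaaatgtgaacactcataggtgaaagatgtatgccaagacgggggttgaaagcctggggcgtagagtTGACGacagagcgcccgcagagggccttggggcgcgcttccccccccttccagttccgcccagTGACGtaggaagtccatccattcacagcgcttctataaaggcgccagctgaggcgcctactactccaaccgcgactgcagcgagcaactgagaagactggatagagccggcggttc
Npas4 (chr19:4989922-4990221, minus strand): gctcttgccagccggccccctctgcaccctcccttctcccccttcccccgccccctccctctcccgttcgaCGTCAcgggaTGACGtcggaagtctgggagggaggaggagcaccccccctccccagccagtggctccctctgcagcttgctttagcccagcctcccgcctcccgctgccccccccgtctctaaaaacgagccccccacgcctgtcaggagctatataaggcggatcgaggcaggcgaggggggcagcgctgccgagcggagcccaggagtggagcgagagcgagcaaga
Nr4a1 (chr15:101266596-101266895, plus strand): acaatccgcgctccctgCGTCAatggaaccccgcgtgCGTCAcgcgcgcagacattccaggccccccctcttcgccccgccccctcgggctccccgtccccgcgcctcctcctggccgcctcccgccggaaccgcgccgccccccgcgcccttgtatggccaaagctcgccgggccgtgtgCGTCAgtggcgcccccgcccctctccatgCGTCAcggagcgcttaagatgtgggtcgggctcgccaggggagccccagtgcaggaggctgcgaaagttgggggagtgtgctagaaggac
Egr4 (chr6:85513540-85513839, minus strand): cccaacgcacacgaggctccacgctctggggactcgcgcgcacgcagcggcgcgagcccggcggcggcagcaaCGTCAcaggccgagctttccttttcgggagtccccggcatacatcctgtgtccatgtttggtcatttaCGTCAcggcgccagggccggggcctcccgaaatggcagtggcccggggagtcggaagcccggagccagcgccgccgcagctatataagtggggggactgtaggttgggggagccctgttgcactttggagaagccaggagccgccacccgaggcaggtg
Nr4a1 holds 4 such half-sites in its window, and Fos, Npas4 and Egr4 hold 2 each. The full palindrome TGACGTCA is absent from these 4 windows.

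A window was found for 29 of the 38 rapid activity-induced genes on the list used here. The half-site occurred in at least 1 window of 21 of the 29 (72.4%), against 33.4% of 11737 genes tested that had a window and 23% of all 27025 genes of the table. Of the 15 whose KO trained libraries all lay above house controls, 10 had a window, and each of the 10 held a half-site. The rest of the 21 were list genes whose KO groups overlapped, so the half-site was not confined to the separated genes. The part of CREB in the expression values was not tested. The full palindrome was found in 13.8% of the 29 genes against 3.43% of the tested genes, and in 0 of the 10 that were higher without overlap. The CArG box, the SRF site, was found in 6.9% of the 29 against 1.64%. The half-site was chosen after the expression values were seen, matches overlap those of the full palindrome, and a match describes letters and not a bound site.

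**Figure D1:**
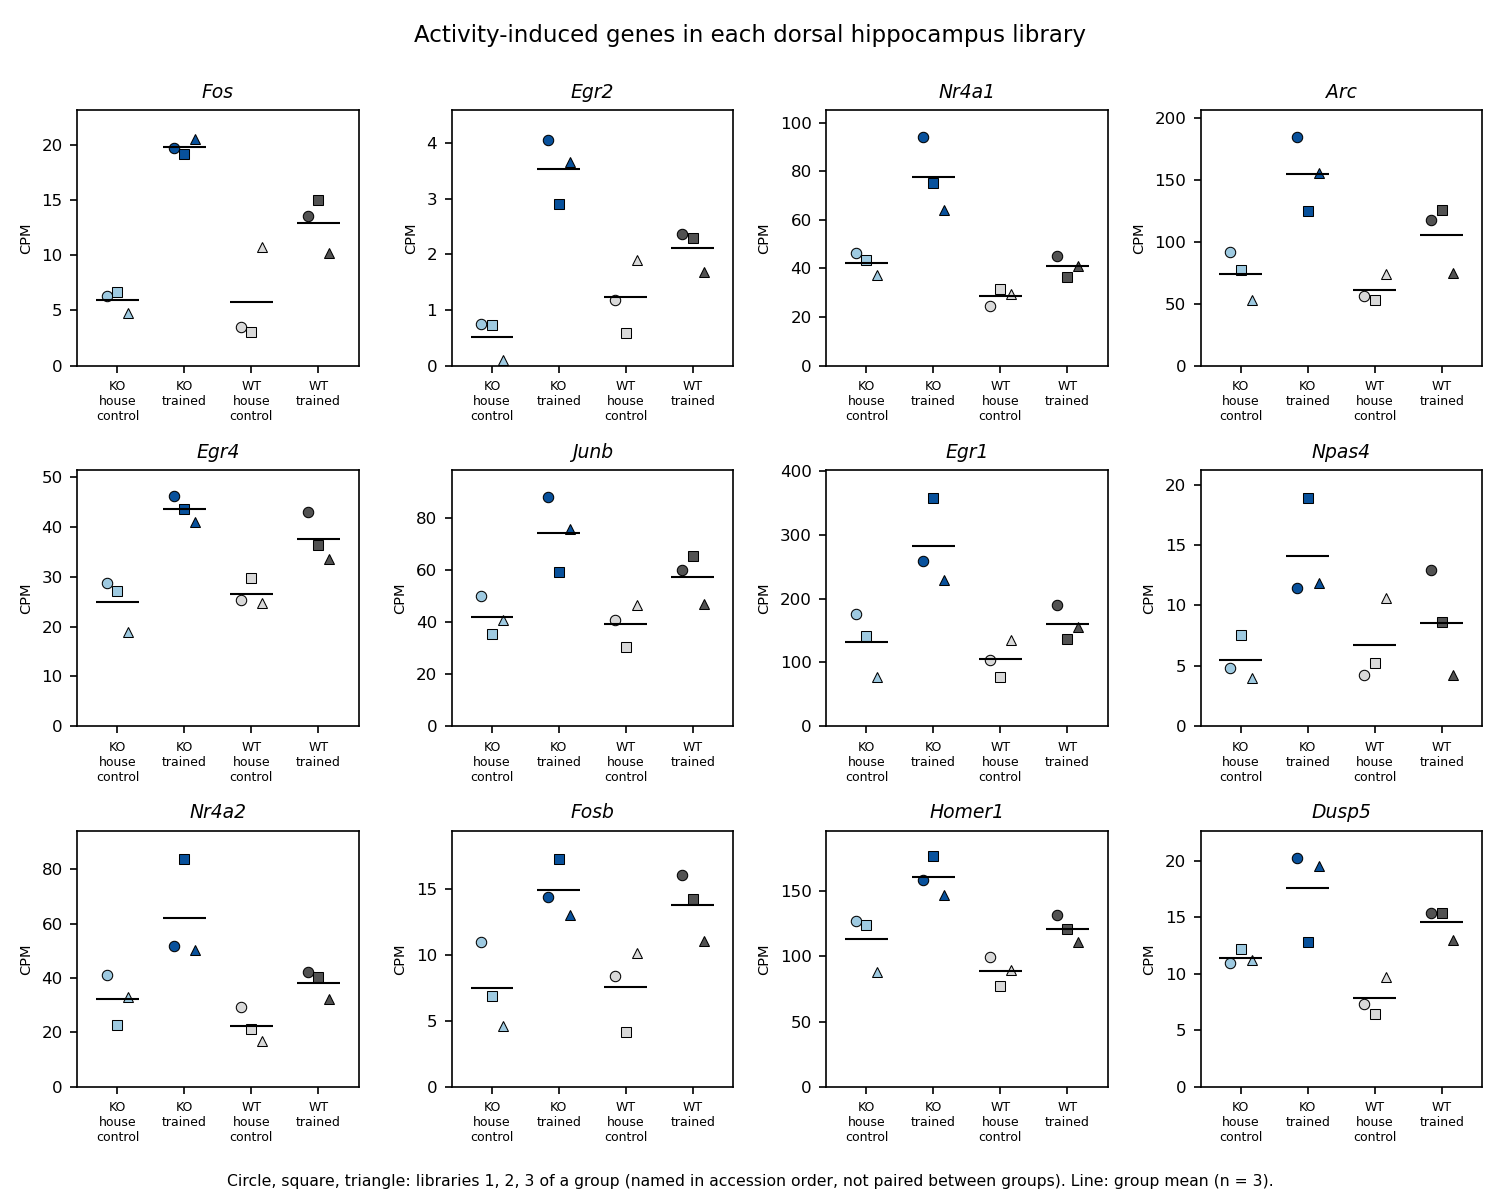
CPM (linear axis from 0) of 12 activity-induced genes in each library, with the 3 libraries of a group as circle, square and triangle and a line at the group mean. The panels show only genes whose 3 KO trained libraries lie above all 3 KO house control libraries, for Fos at 19.1 to 20.5 against 4.73 to 6.70 CPM. Bdnf, Nptx2, Egr3, Nr4a3 and Dusp6, whose KO groups overlap, are left out. In WT the groups overlap for Fos, Egr2 and Npas4.

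Among the Nr4a receptors, orphan nuclear receptors induced by cAMP and calcium, Nr4a1 and Nr4a2 separated the groups and Nr4a3 (log2 0.46 ± 0.31 SE) did not. Nr4a1 was at 46.4, 43.7 and 37.2 CPM in KO house controls and 93.9, 75.0 and 64.1 CPM in KO trained mice (log2 0.87 ± 0.15 SE). Its edgeR p, 0.000158 before adjustment, was the smallest of the higher genes considered for naming, which averaged at least 1 CPM without overlap. Nr4a2, named after its values were seen, was at 41.2, 22.9 and 33.0 CPM against 51.9, 83.8 and 50.2 CPM (log2 0.94 ± 0.27). Among the Egr factors, Egr4 read 28.7, 27.2 and 18.9 CPM against 46.2, 43.6 and 41.0 CPM (log2 0.80 ± 0.15). Egr1 read 177, 141 and 77.8 CPM against 260.0, 357 and 229.7 CPM (log2 1.10 ± 0.30), and Egr3 overlapped (log2 0.43 ± 0.26). The AP-1 family had further members that were higher: Junb, a partner of Fos, was at 49.9, 35.2 and 40.7 CPM against 87.9, 59.1 and 75.7 CPM (log2 0.82 ± 0.20). Fosb, whose truncated splice form is long-lived and builds up with repeated activity, was at 11, 6.89 and 4.63 CPM against 14.4, 17.3 and 13.0 CPM (log2 0.99 ± 0.35). The trained and house control libraries did not overlap for Nr4a1, Nr4a2, Egr4, Egr1, Junb and Fosb. The third house control library was the lowest of its group for Fos, Fosb, Egr1, Egr2, Egr4 and Nr4a1.

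Arc and Npas4 also separated the groups. Arc (chromosome 15, 74669083 to 74672570, mm10), a capsid-forming protein that promotes removal of AMPA receptors from the synapse, was at 91.9, 77.0 and 53.1 CPM in KO house controls and 185, 125 and 156 CPM in KO trained mice, a log2 fold change of 1.07 ± 0.25 (SE). Npas4, a neuron-restricted transcription factor that regulates inhibitory synapses, was at 4.85, 7.54 and 4.00 CPM against 11.4, 18.9 and 11.9 CPM, a log2 fold change of 1.36 ± 0.45. The KO groups did not overlap for either gene. The authors' deposited table called both (adjusted p 0.0146 and 0.0249), and with Egr2 (0.00539), Nr4a1 (0.00539), Egr4 (0.0249) and Fos they make up its 6 higher genes. DESeq2 with the 6 KO libraries called the same 6 and Rasl11b, and with 12 libraries it called Fos, Egr2, Nr4a1 and Egr4 but not Arc (adjusted p 0.0551) or Npas4 (0.759). When each KO library was left out in turn, DESeq2 called Fos in 6 of 6 runs, Egr2 and Nr4a1 in 3, Arc and Egr4 in 2, and Npas4 and Rasl11b in 1.

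Read as a list, 32 of the 38 rapid activity-induced genes had a positive log2 fold change, with a median of 0.27 beside -0.0031 for all genes tested, of which 49.1% were positive. The trained libraries lay above house controls without overlap for 15 of the 38, beside 3.34% of all genes tested, and below for 0. At an unadjusted p below 0.05 in edgeR there were 14 higher, beside 0.973% of all genes, and 0 lower. Besides the 10 described above, the 15 comprised Crem, Rheb, Per1, Per2 and Ier2, with log2 fold changes of 0.18 to 0.40. The 6 members with a negative value were Maff, Cyr61, Jun, Gadd45g, Amigo3 and Sik1, at -0.23 to -0.02, all with overlapping groups. Without the third house control and second trained libraries, 33 of 38 were positive and the median was 0.297, with 10 at an unadjusted p below 0.05.

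Of the genes counted on the delayed list, Homer1 is also named above among the immediate early genes. Homer1, whose short form uncouples glutamate receptors from their scaffold, was at 127, 124 and 88.4 CPM in KO house controls and 159, 177 and 147 CPM in KO trained mice (log2 0.50 ± 0.15 SE). Cdkn1a, a cell cycle inhibitor, was at 7.19, 9.79 and 6.32 CPM against 10.7, 13.7 and 10.5 CPM (log2 0.58 ± 0.20). Vgf, a secreted neuropeptide precursor, was at 224, 255 and 156 CPM against 274, 309 and 265 CPM (log2 0.42 ± 0.17). For Homer1, Cdkn1a, Vgf and the orphan receptor Gpr3 (log2 0.39 ± 0.15) the KO groups did not overlap. Bdnf, a growth factor transcribed in response to activity, was at 87.2, 38.4 and 62.2 CPM against 86.4, 51.9 and 78.5 CPM (log2 0.21 ± 0.33), and Nptx2, a secreted pentraxin that clusters AMPA receptors, at 65.8, 64.1 and 83.3 CPM against 73.6, 69.8 and 77.7 CPM (log2 0.05 ± 0.13). Both overlapped. Of 32 delayed genes, 24 were positive with a median of 0.15, 5 were higher without overlap, beside 3.34% of all genes, and 0 lower, beside 4.54%. Without the third house control and second trained libraries 22 were positive and the median was 0.2175.

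Feedback inhibitors of the ERK kinase cascade, which act to switch that signal off, gave 14 positive log2 fold changes of 16, with a median of 0.18 and 2 genes higher without overlap, beside 3.34% of all genes. Dusp5, a nuclear ERK phosphatase, was at 10.9, 12.1 and 11.2 CPM in KO house controls and 20.2, 12.8 and 19.5 CPM in KO trained mice, a log2 fold change of 0.62 ± 0.19 (SE). The second trained library lay just above the house controls and the other 2 well above them. Dusp6, a cytoplasmic ERK phosphatase, was at 67.4, 46.4 and 49.7 CPM against 86.4, 65.7 and 74.7 CPM (log2 0.47 ± 0.15), with the first house control above the second trained library. Spred3, an inhibitor of Ras signalling to ERK, was at 50.0, 53.9 and 39.7 CPM against 57.2, 57.3 and 58.9 CPM (log2 0.27 ± 0.13).

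Targets of stress hormones and genes of the circadian clock were listed because handling and the hour of dissection are not described in the labels. Of 19 glucocorticoid receptor and target genes 17 were positive (median 0.22), and 2, Cdkn1a and Per1, were higher without overlap, beside 3.34% of all genes. Without the first house control library 13 were positive and the median was 0.0673. Metallothionein 1 (Mt1), a metal-binding protein, was at 148, 167 and 246 CPM against 123, 143 and 158 CPM (log2 -0.40 ± 0.18 SE), with overlap. The 19 core clock genes were divided, 9 positive and 10 negative, with a median of -0.01. The clock repressors Per1 and Per2 are also on the list of rapid genes: Per1 read 71.6, 79.6 and 74.7 CPM against 89.1, 101 and 90.7 CPM, and Per2 read 36.0, 30.4 and 37.3 CPM against 49.9, 42.7 and 43.1 CPM. Bhlhe41, another clock repressor, was lower in trained mice at 61.7, 65.4 and 81.2 CPM against 51.5, 53.9 and 56.2 CPM (log2 -0.37 ± 0.11). No gene of these lists passed the adjusted test in edgeR, and the part of collection time or stress hormones in the activity-gene values was not tested.

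Rasl11b, a small GTPase of the Ras family, was at 55.7, 56.3 and 57.4 CPM in KO house controls and 78.3, 69.1 and 78.2 CPM in KO trained mice (log2 0.41 ± 0.09 SE). In WT it read 35.7, 33.7 and 37.8 CPM against 59.0, 57.5 and 46.8 CPM (log2 0.61 ± 0.09), also without overlap. Cdk8, a kinase of the Mediator complex, was at 18.9, 19.4 and 19.7 CPM against 26.1, 24.6 and 23.7 CPM (log2 0.36 ± 0.09). Ldha, a subunit of lactate dehydrogenase, was at 149.5, 133 and 126 CPM against 159, 169 and 163 CPM (log2 0.27 ± 0.07). Cdk8 and Ldha were named under a rule that required no overlap of the KO groups. Neither gene passed an adjusted p of 0.05 in edgeR, in DESeq2 with 6 or 12 libraries, or in the authors' deposited table.

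Genes of the synapse had small log2 fold changes. Positive log2 fold changes were found for 12 of 16 NMDA, AMPA and kainate receptor subunits (median 0.12), 26 of 32 postsynaptic scaffold and adhesion genes (0.09), 32 of 39 presynaptic genes (0.08), 33 of 47 voltage-gated channel genes (0.09) and 31 of 39 calcium and cAMP signalling genes (0.07). In that order 1, 1, 3, 2 and 3 genes were higher without overlap, beside 3.34% of all genes tested, a share that the postsynaptic and channel counts were near. The postsynaptic gene was Homer1, which is also counted on the delayed list. Lower without overlap were 0, 0, 0, 1 and 0, beside 4.54%, the 1 being the channel gene Kcnn3 (log2 -0.25). Without the first trained library the positive counts were 8 of 16 receptor subunits (median 0.0139), 16 of 32 postsynaptic genes (0.0029) and 22 of 47 channel genes (-0.0035). Of the genes higher without overlap, Kcnv1, a modulatory potassium channel subunit, was at 68.7, 76.9 and 52.3 CPM against 83.4, 96.5 and 95.2 CPM (log2 0.47 ± 0.15 SE). Pde1a, a calmodulin-activated phosphodiesterase, was at 165, 175 and 178 CPM against 196, 236 and 207 CPM (log2 0.30 ± 0.13). Syt12, a synaptotagmin of synaptic vesicles, was at 38.9, 39.2 and 26.1 CPM against 43.5, 50.1 and 44.7 CPM (log2 0.41 ± 0.15), and Gria3, an AMPA receptor subunit, at 249, 238 and 238 CPM against 281, 261 and 276 CPM (log2 0.18 ± 0.11). Chaperones were positive in 24 of 25 (median 0.09) with 1 gene higher without overlap, Dnajb1, which is near the 3.34% of all genes. By count, 2 of 7 metabotropic glutamate receptors and 7 of 14 GABA-A subunits were positive.

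**Figure D2:**
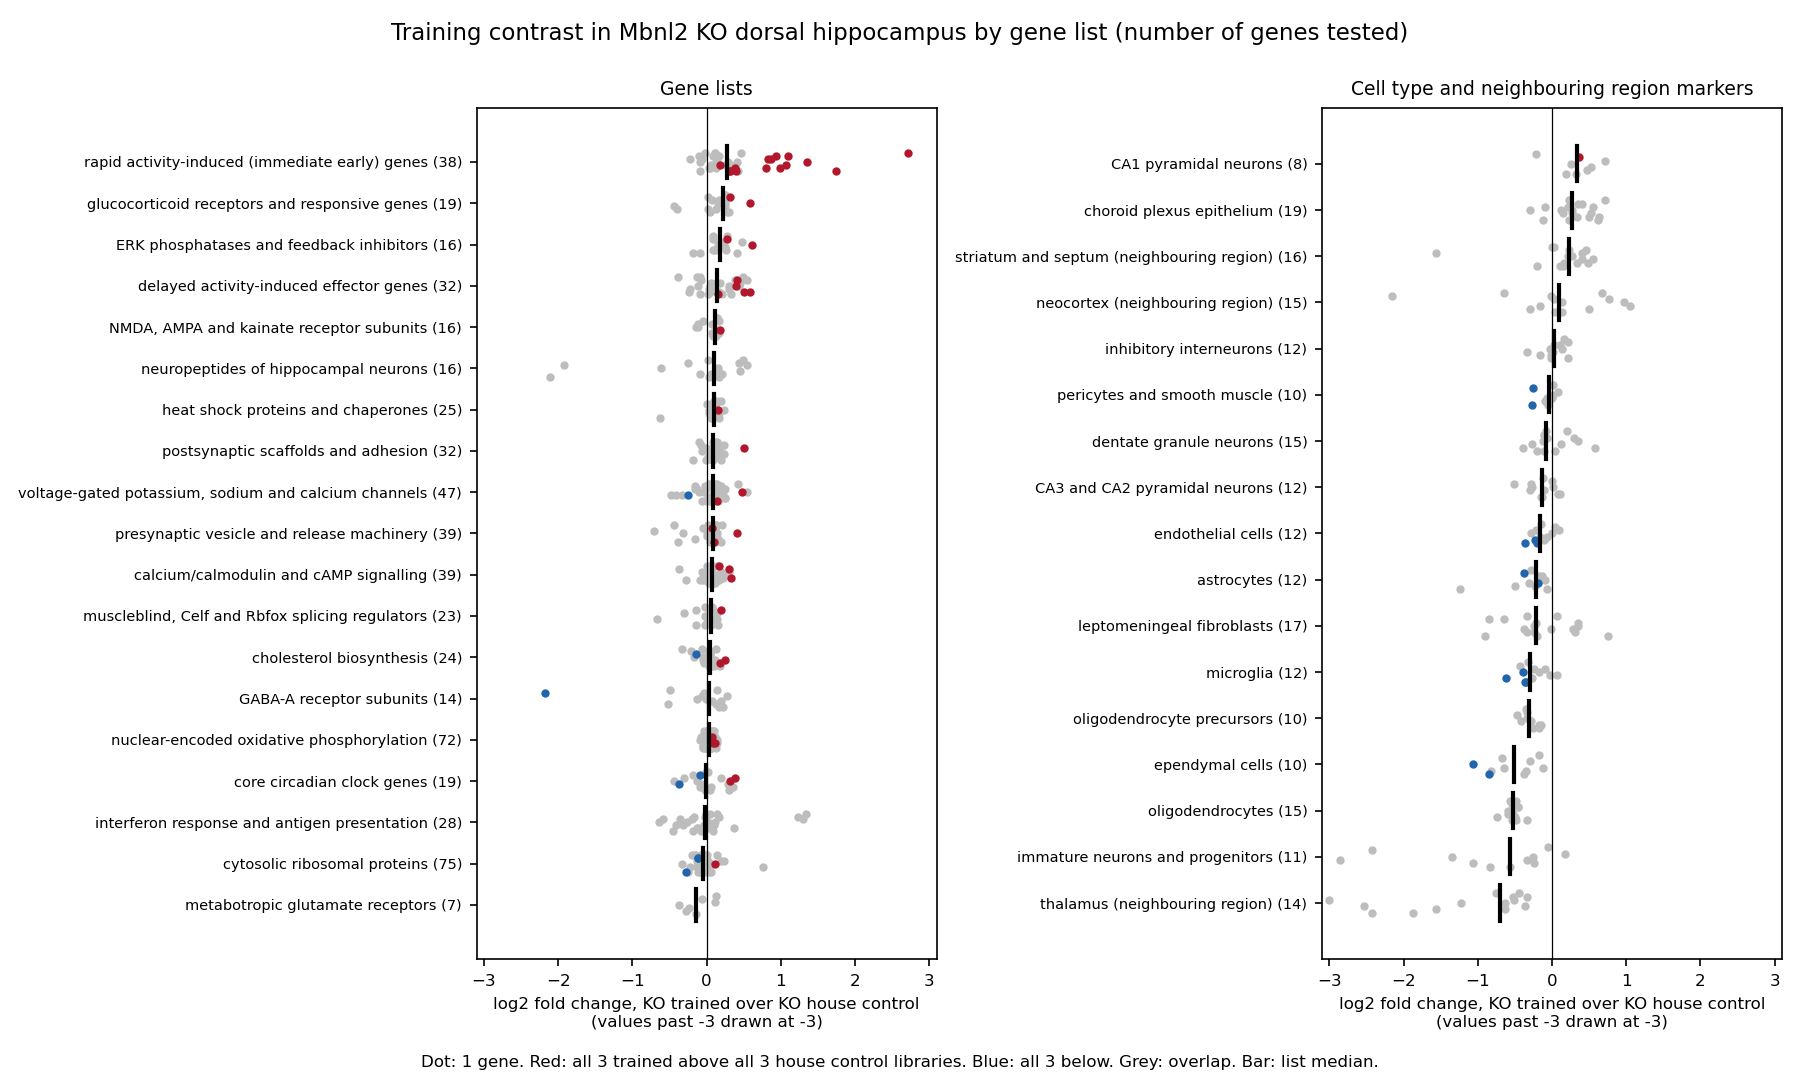
Log2 fold change of KO trained over KO house control for each tested gene of the gene and marker lists, with black bars at the medians, red for genes whose 3 trained libraries lie above all house controls and blue for the reverse. Red genes gather among the rapid activity-induced genes (15 of 38, median 0.27), beside 3.34% of all genes. Blue genes, 4.54% of all genes, appear in several lists. These include microglia (4 of 12, median -0.30), endothelial cells (3 of 12), ribosomal proteins (3 of 75) and astrocytes (2 of 12, median -0.21). Ependymal cells (2 of 10), pericytes and smooth muscle (2 of 10) and clock genes (2 of 19) also hold some.

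Of the 8 lower genes of the authors' deposited table, 4 belong to the Serpina3 cluster on chromosome 12. Serpina3n (104406729 to 104414329, mm10), a secreted serine protease inhibitor and a marker of reactive astrocytes, was at 122, 162 and 165 CPM in KO house controls and 55.1, 26.6 and 58.3 CPM in KO trained mice (means 149.5 ± 24.2 and 46.7 ± 17.5 CPM, SD, n = 3 each). Every trained library lay below every house control library, a log2 fold change of -1.68 ± 0.41 (SE). Serpina3f was at 3.01, 3.88 and 1.45 CPM against 0.306, 0.415 and 0.548 CPM (log2 -2.72 ± 0.62), and Serpina3c at 2.72, 3.43 and 1.30 CPM against 0.574, 0.369 and 0.548 CPM (log2 -2.31 ± 0.68). Serpina3m was at 4.10, 6.47 and 0.868 CPM against 0.344, 0 and 0.183 CPM (log2 -4.35 ± 1.13), with 0 counts in 1 trained library. Serpina3g was at 0.878, 0.914 and 1.25 CPM against 0.459, 0.323 and 0.822 CPM. The groups did not overlap for any of the 5 genes, of which Serpina3c and Serpina3g were named after their values were seen. They are paralogs and the annotated span of Serpina3m overlaps that of Serpina3k. Some reads may therefore not have been counted for the right gene, and the 5 genes are not independent observations.

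The authors' deposited table called Serpina3n, Serpina3f, Serpina3m and Serpina3c lower (adjusted p 0.000151, 0.00379, 0.00546 and 0.0244). DESeq2 runs that left out 1 KO library each called Serpina3n in 6 of 6, Serpina3f in 4, Serpina3m in 3 and Serpina3c in 1. With 12 libraries it called Serpina3n, Serpina3f and Serpina3m but not Serpina3c (adjusted p 0.3494). In WT the same genes varied in another pattern. WT Serpina3n was at 148, 182 and 107 CPM against 149, 159 and 54.0 CPM, so the third trained library stood low and the other 2 trained libraries lay among the house controls. Serpina3f was at 2.26, 4.00 and 2.68 CPM against 2.70, 2.61 and 0.498 CPM and Serpina3m at 4.73, 6.27 and 4.01 CPM against 4.37, 5.54 and 0.345 CPM in WT, again lowest in the third trained library.

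Glial genes followed with smaller differences. Sox9, a transcription factor of astrocytes and neural stem cells, was at 45.6, 50.7 and 49.7 CPM in KO house controls and 33.9, 31.6 and 35.1 CPM in KO trained mice (log2 -0.54 ± 0.14 SE). Mpeg1, a pore-forming protein of microglia and macrophages, was at 26.1, 29.7 and 26.5 CPM against 18.2, 17.2 and 18.8 CPM (log2 -0.60 ± 0.23). The groups did not overlap for either gene, and the authors' deposited table called both lower (adjusted p 0.00539 and 0.00564). Its other lower genes were Hydin, a protein of motile cilia (0.0471), and C230072F16Rik (0.0249), both named after their values were seen. With 12 libraries DESeq2 called none of these 4 (adjusted p 0.4703 for Sox9 and 0.9992 for the others), and with 1 KO library left out it called Sox9 in 3 of 6 runs, Mpeg1 and Hydin in 2 and C230072F16Rik in 1. Hydin was at 6.36, 11.6 and 9.22 CPM against 2.79, 3.41 and 4.66 CPM in KO, without overlap, and at 4.22, 15.1 and 18.0 CPM against 7.23, 0.281 and 8.85 CPM in WT, where the libraries spread more widely. The authors' deposited tables gave log2 fold changes of -0.53 in KO and -0.47 in WT for Sox9, and -0.59 in both for Mpeg1. For C230072F16Rik they gave -1.98 in KO and -1.43 in WT. In their WT table the adjusted p was 0.44 for Sox9, 0.53 for Mpeg1 and 0.64 for C230072F16Rik.

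Microglia markers were mostly lower in trained mice: 11 of 12 had a negative log2 fold change, with a median of -0.30 beside -0.0031 for all genes. Of the 12, 7 had an unadjusted p below 0.05 in edgeR, beside 2.04% of all genes, and 4 were lower without overlap, beside 4.54%. Csf1r, the survival receptor of microglia, was at 120.3, 129.6 and 145 CPM in KO house controls and 109, 88.1 and 105 CPM in KO trained mice (log2 -0.39 ± 0.10 SE). Cx3cr1, the fractalkine receptor, was at 64.7, 68.3 and 72.9 CPM against 57.2, 50.8 and 52.5 CPM (log2 -0.36 ± 0.09). Trem2, a lipid-sensing receptor, was at 7.65, 9.41 and 9.65 CPM against 6.28, 4.89 and 6.16 CPM (log2 -0.62 ± 0.17). The KO groups did not overlap for Csf1r, Cx3cr1 and Trem2. The markers P2ry12, Siglech and Tmem119 overlapped, with log2 fold changes of -0.27 to -0.03. The summed level of the 12 markers was 479.9, 554 and 627 CPM against 456, 396 and 451 CPM, so the sums did not overlap, and 0 of the 12 was at 0 in any KO library. Without the third house control and second trained libraries the median was -0.09, with 8 of 12 negative and 2 at an unadjusted p below 0.05.

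**Figure D3:**
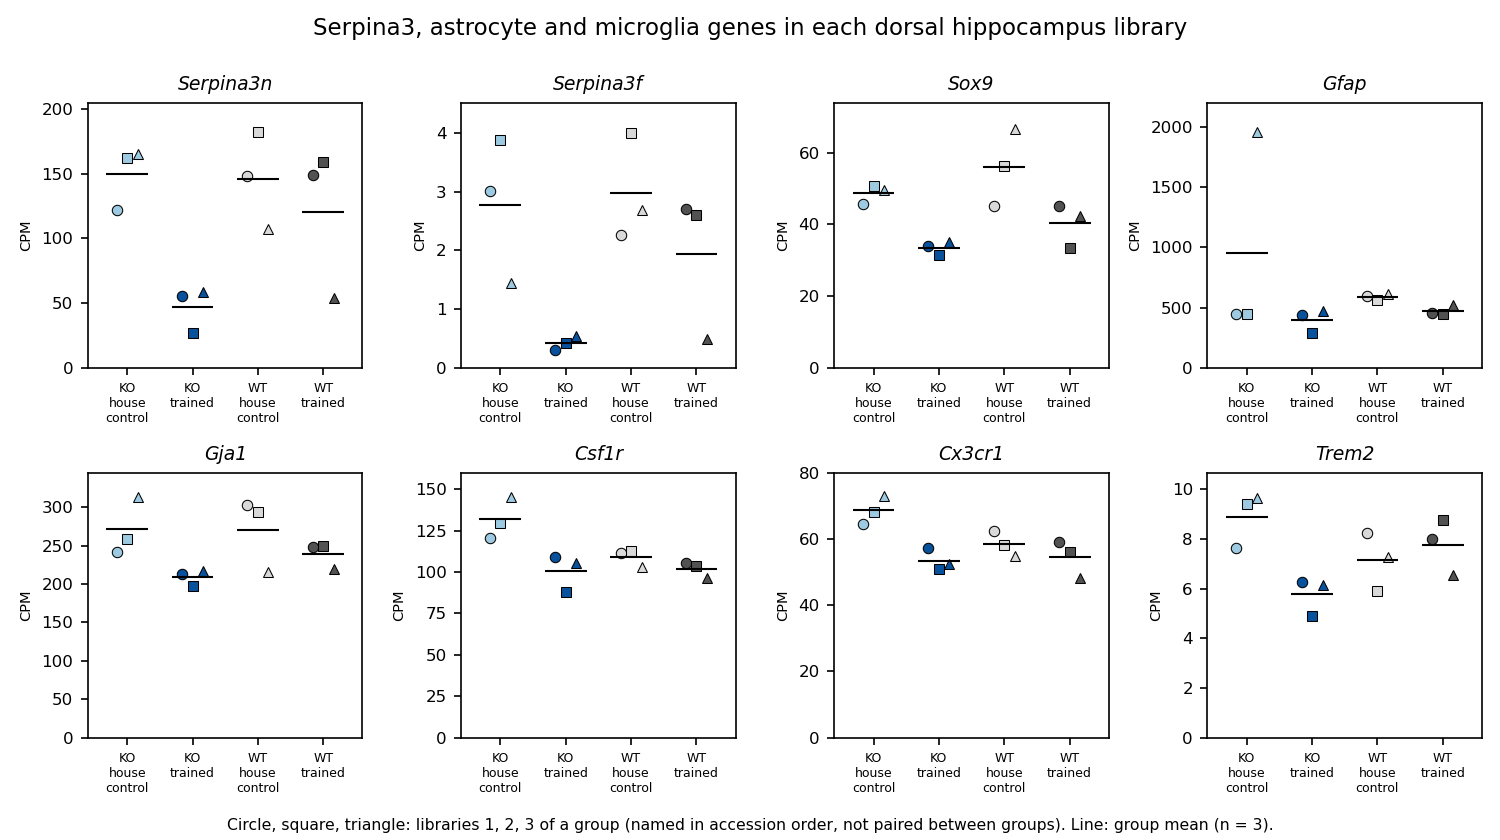
CPM (linear axis from 0) of Serpina3, astrocyte and microglia genes in each library, symbols and lines as in the plot of activity-induced genes. KO trained libraries lie below KO house controls for Serpina3n (26.6 to 58.3 against 122 to 165 CPM), Sox9 and Csf1r, while the Gfap difference rests on 1 house control library at 1957 CPM.

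Astrocyte markers were negative in 12 of 12, with a median of -0.21, 4 at an unadjusted p below 0.05, beside 2.04% of all genes, and 2 lower without overlap, beside 4.54%. Those 2 were Gja1, an astrocyte gap junction protein, at 241, 259 and 314 CPM against 213, 197 and 216 CPM (log2 -0.38 ± 0.14 SE), and Aldoc, a glycolytic enzyme, at 610.0, 713 and 697 CPM against 598, 581 and 586 CPM (log2 -0.20 ± 0.08). Gfap, the intermediate filament of astrocytes, was at 448, 448 and 1957 CPM against 436, 292 and 475 CPM. The third house control library stood far above the other 5, and the Gfap log2 fold change of -1.25 ± 0.49 became -0.15 without it. The same library was the highest for complement C4b (34.7, 48.1 and 165 CPM against 29.5, 25.3 and 36.0 CPM) and for the filament gene Vim (43.5, 71.0 and 155 CPM against 35.4, 38.3 and 57.3 CPM), both named after their values were seen. The Serpina3n log2 fold change was -1.59 without that library. Without it and the second trained library, 10 of 12 astrocyte markers were negative, with a median of -0.12 and 0 at an unadjusted p below 0.05. In WT 11 of 12 astrocyte markers were negative, with a median of -0.25 and 0 lower at an unadjusted p below 0.05 in edgeR. Of these, 3 were lower without overlap, beside 7.8% of all genes in WT. The difference between genotypes was not tested for this list.

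Markers of other cells and of neighbouring tissue varied widely between libraries of 1 group. All 15 oligodendrocyte markers were negative (median -0.53), but their sum was 5827, 15433 and 8693 CPM in KO house controls and 3872, 9768 and 6842 CPM in trained mice, with 0 markers at an unadjusted p below 0.05 and 0 without overlap. Without the second house control library, the highest, the median was -0.05. Thalamus markers were negative in 14 of 14, with a median of -0.70, and of -0.14 without the third house control library. Slc17a6, the glutamate transporter of thalamic neurons, was at 2.68, 18.9 and 53.6 CPM against 0.804, 6.78 and 5.43 CPM. Choroid plexus markers summed to 3298, 563 and 4503 CPM in house controls and to 229, 6938 and 4329 CPM in trained mice. The median of the 16 striatum and septum markers was 0.22, with -1.49 without the second trained library and 1.56 without the second house control library. In these lists Gbx2, a thalamus marker, was at 0 in at least 1 KO library. WT markers were also negative in 15 of 15 for oligodendrocytes (median -0.64) and 14 of 14 for thalamus (median -0.96). The part of tissue composition in the gene values above was not tested, beyond the values given without single libraries.

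**Figure D4:**
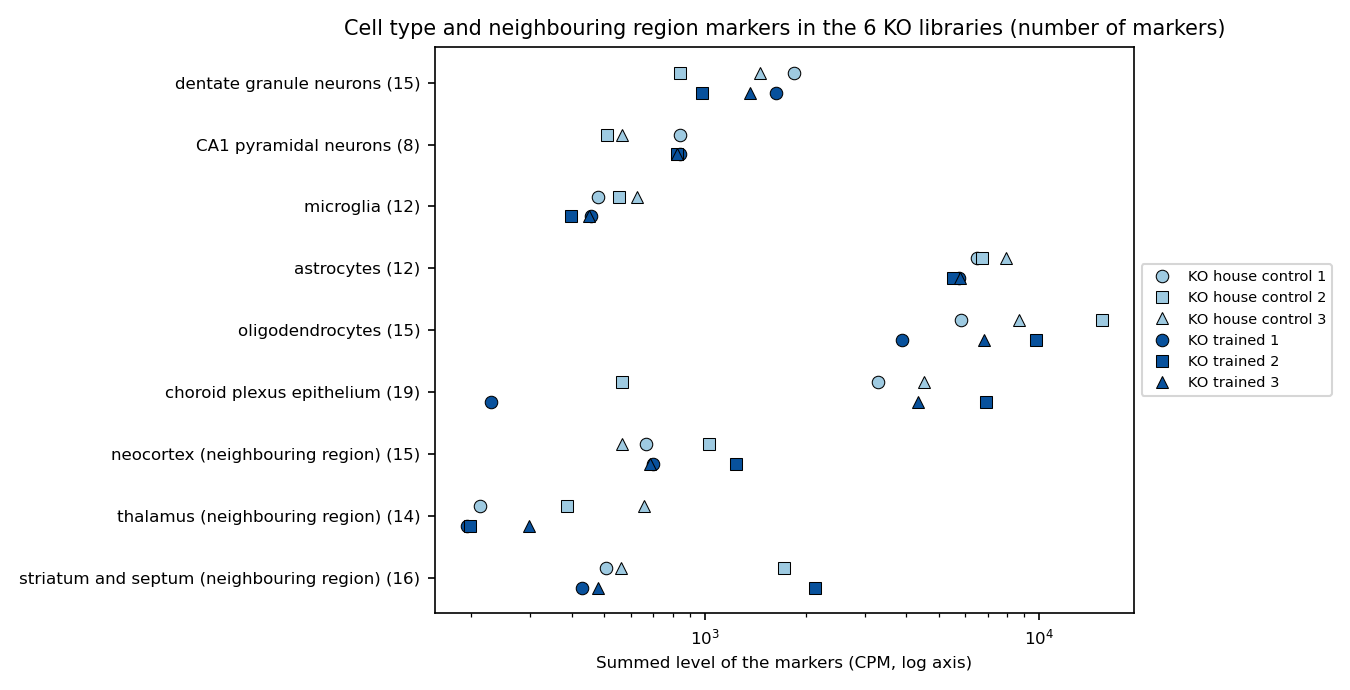
Summed CPM (log axis) of marker genes in the 6 KO libraries, house controls in light and trained in dark blue, with library numbers as symbols. Striatum and septum markers are highest in the libraries numbered 2 of both groups (1725 and 2132 CPM), whereas microglia (480 to 627 against 396 to 456 CPM) and astrocyte sums separate the groups.

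Immature neuron and progenitor markers were negative in 10 of 11 tested (median -0.57) with 0 lower without overlap. The median was -0.21 without the second house control library. Mki67, a protein of dividing cells, was at 3.39, 7.65 and 6.61 CPM against 2.60, 4.38 and 2.92 CPM (log2 -0.84 ± 0.32 SE), and Nes, a filament of neural stem cells, at 12.8, 15.0 and 11 CPM against 10.3, 11.2 and 9.31 CPM (log2 -0.34 ± 0.15). CA1 markers were positive in 7 of 8 (median 0.34) and dentate granule markers in 6 of 15 (median -0.08), with 1 and 0 members higher without overlap, beside 3.34% of all genes. Of the lower genes considered for naming, which averaged at least 1 CPM without overlap, Tst, a mitochondrial sulfurtransferase, and Ttc28 had the smallest edgeR p. Tst was at 24.1, 25.6 and 23.1 CPM against 15.9, 19.2 and 19.8 CPM (log2 -0.41 ± 0.09) and Ttc28 at 26.6, 31.2 and 29.1 CPM against 22.0, 20.7 and 22.2 CPM (log2 -0.42 ± 0.09). Next by p, beside the Serpina3 genes, came Bach1, a haem-responsive repressor, Plek, a cytoskeletal protein of blood cells, the cytokine Tgfb1, and Fam69c, Pcdhgb7 and Micall2, with log2 fold changes of -1.02 to -0.36. No overlap of the groups was a condition for naming these 6, and likewise Tst and Ttc28.

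Whether the training contrast differed between genotypes was asked with the interaction term, KO contrast minus WT contrast, which uses all 12 libraries and shares none between the contrasts. edgeR called 0 of 15622 genes (0%, with 235 or 1.5% at an unadjusted p below 0.05), and DESeq2 called 0. In WT alone edgeR also called 0 (0%), with 747 genes (4.78%) higher and 787 (5.04%) lower at an unadjusted p below 0.05, and the authors' deposited WT table holds 4 higher (0.0247%) and 15 lower (0.0927%). DESeq2 called 3 higher and 13 lower in WT with 12 libraries. The rapid activity-induced genes were positive in WT as in KO: 31 of 38 with a median of 0.24, 12 of them higher without overlap beside 7.01% of all genes, and 0 lower, beside 7.8%. The sign was the same in both genotypes for 35 of the 38. As a description across genes, which are not independent, the contrasts correlated with Pearson's r of 0.743 and Spearman's rho of 0.826 over the 38 and 0.365 and 0.421 over all genes tested.

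**Figure D5:**
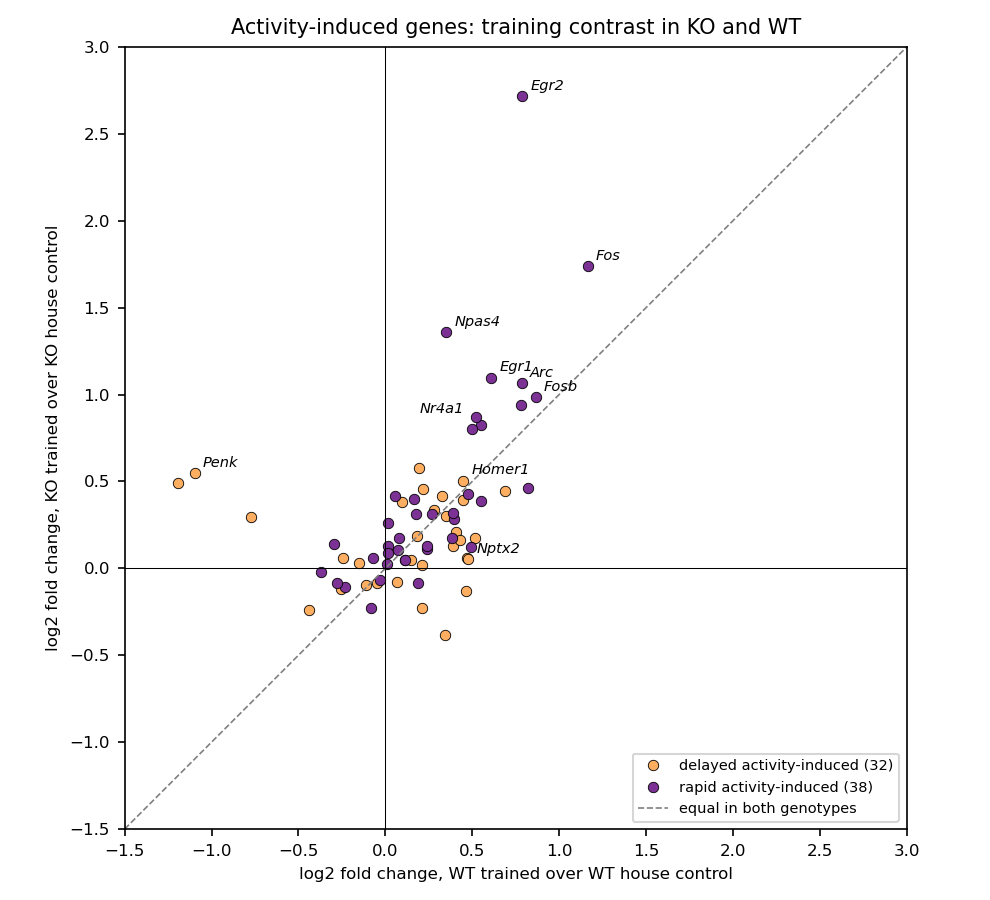
Log2 fold change of trained over house control in KO (vertical) against WT (horizontal) for 38 rapid and 32 delayed activity-induced genes, 1 dot per gene, with a dashed line where both are equal. Egr2 (2.72 and 0.79), Fos (1.74 and 1.16) and Npas4 (1.36 and 0.35) lie above the line, but the difference did not pass the adjusted test for any gene.

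Egr2, Fos, Npas4 and Nr4a1 had larger log2 fold changes in KO than in WT, and none passed the interaction test. WT Egr2 was at 1.183, 0.596 and 1.90 CPM against 2.37, 2.29 and 1.69 CPM, and the interaction was 1.93 ± 0.77 (SE, unadjusted p 0.0294 and adjusted p 0.9997 in edgeR). WT Fos was at 3.50, 3.01 and 10.7 CPM against 13.6, 15.0 and 10.2 CPM, so the third house control library lay at the level of the lowest trained library. The Fos interaction of 0.57 ± 0.56 became -0.24 without that library, and -0.56 within the first of the 2 series of animal numbers, which leaves out library 3 of each group. The second series has 1 library per group and gives no test. Npas4 differed by 1.01 ± 0.63 and Nr4a1 by 0.35 ± 0.22. For Nptx2 the interaction was negative, -0.42 ± 0.18: its WT libraries were at 45.3, 36.0 and 36.2 CPM against 61.9, 49.7 and 51.5 CPM.

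Among the lower genes the interaction was -1.41 ± 0.56 for Serpina3n, -2.09 ± 0.82 for Serpina3f and -0.75 ± 0.24 for Trem2 (SE), with unadjusted p of 0.0309, 0.0282 and 0.0115 and adjusted p of 0.9997 in edgeR. Microglia markers had a median of -0.09 in WT with 0 at an unadjusted p below 0.05, beside -0.30 and 7 of 12 in KO, and the difference between the lists was not tested. The genes with the smallest interaction p were led by Atp13a4, a P-type ATPase. It was at 13.2, 10.7 and 13.3 CPM in KO house controls and 15.2, 14.9 and 10.8 CPM in KO trained mice, and in WT at 17.9, 18.1 and 14.5 CPM against 9.48, 9.80 and 8.35 CPM. The WT groups did not overlap and the KO groups did, with an interaction of 1.01 ± 0.22 (unadjusted p 0.00079, adjusted p 0.9997 in edgeR). Next on the positive side were Wtip, Mylk, a myosin light chain kinase of smooth muscle, Pts, an enzyme of tetrahydrobiopterin synthesis, and Eln, elastin, with interactions of 0.65 to 1.39. On the negative side were Ccdc28a, Pbdc1, Lrrc8b, Mkln1 and Pik3r4, at -0.55 to -0.26.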

How the data were processed

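RNA from the dorsal hippocampus of 12 mice was sequenced after polyA selection. The authors deposited raw read counts per gene symbol for each library. Tools listed in the submitters' processing notes are HTSeq 0.9.1, TopHat2 2.1.1, Bowtie2 2.3.4.2, cutadapt 1.18 and DESeq2 1.18.1, with build mm10. No source used here gives the strand setting. The authors also deposited 1 table per training comparison, with a mean normalized count per gene (a signal), log2 fold changes, a test statistic (a score), p-values and adjusted p-values, per the file headers.

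Here the counts were fitted with edgeR 4.0.16 in R 4.3.3: TMM scaling, filterByExpr (minimum count 10, minimum total 15), 4 group means over 12 libraries (8 residual degrees of freedom), the robust quasi-likelihood test and Benjamini-Hochberg adjustment over 15622 genes. The SE of a log2 fold change was its size divided by the square root of the F statistic. DESeq2 1.42.0, other scalings and filters, the animal number series and left-out libraries were alternatives. Total counts ran from 19737929 to 27427076 per library. No pair of replicates was identical or agreed within counting noise (chi-square per degree of freedom 14.9 to 105). Beyond the animal numbers the labels do not describe how mice were sampled, so p-values measure the spread between these libraries. The fits were tested on simulated data.

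Named genes were the muscleblind genes, up to 10 genes per direction with the smallest p among those averaging 1 CPM or more whose KO groups did not overlap (none passed the threshold), up to 5 per direction from the authors' deposited table, up to 4 per list, 10 activity genes in any case, and up to 5 per direction of the interaction. Predicted or unnamed genes were passed over. Amigo3, Crem, Cyr61, Egr3, Gadd45g, Gbx2, Ier2, Jun, Maff, Nr4a3, P2ry12, Rheb, Serpina3k, Siglech, Sik1 and Tmem119 fall outside this rule and were named after their values were seen. Some genes counted in the lists are not reported here by name. The members and lists were chosen with earlier results of these data known.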

Additional observations from a re-analysis of the deposited data

Results flagged for a closer look

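For 3 of the named genes the trained and house control libraries did not overlap in either genotype and differed in opposite directions. All 3 had been named for their small interaction p, a choice that favours such a pattern. Lrrc8b, a subunit of volume-regulated anion channels, was at 60.6, 64.6 and 61.8 CPM against 60.4, 56.9 and 57.4 CPM in KO and at 53.9, 50.4 and 50.4 CPM against 56.5, 58.1 and 58.1 CPM in WT, an interaction of -0.2581 on the log2 scale. Pbdc1 was at 12.5, 11.9 and 12.3 CPM against 11.6, 9.77 and 11.3 CPM in KO and at 10.1, 10.5 and 10.9 CPM against 12.1, 12.4 and 12.6 CPM in WT, an interaction of -0.4085. Mylk, a myosin light chain kinase of smooth muscle, was at 25.2, 20.1 and 25.1 CPM against 28.2, 27.7 and 26.9 CPM in KO and at 33.5, 40.1 and 31.0 CPM against 27.6, 23.4 and 27.4 CPM in WT, an interaction of 0.6515. The adjusted p of the interaction was 0.9997 for each in edgeR. Of all 15622 genes tested, 19 were separated in opposite directions in the 2 genotypes. Separation in the same direction was found for 99 genes higher and 136 lower in both.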

How the results depend on the processing

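No paired analysis was possible because the labels carry no replicate numbers, and those used here follow accession order. With edgeR 0 genes passed in KO under every alternative scaling, filter and left-out library, with 57 to 270 higher and 133 to 590 lower at an unadjusted p below 0.05. DESeq2 called 4 higher and 3 lower in KO, and 3 and 13 in WT, with 12 libraries, and 7 and 9 in KO, and 6 and 17 in WT, with the 6 compared libraries. Leaving out 1 library gave 0 higher and 0 lower genes in KO with edgeR, and 1 to 24 higher and 1 to 36 lower with DESeq2 on the compared libraries, the most without the first house control library. In WT, where only edgeR was run with 1 library left out, it gave 0 to 1 higher. The cause was not tested.

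Some values changed sign. Within the first animal series Cd74 was -0.0783, H2-Ab1 -0.20 and Wtip -0.037 in KO, and the interaction was -0.56 for Fos, -0.45 for Fosb, -0.0247 for Junb and -0.27 for Arc. Without both KO libraries numbered 2 Atp13a4 was -0.0221. Without the third house control and second trained libraries Gfap was 0.0303 and Mkln1 0.0695. Leaving out 1 library gave -0.53 to 1.81 for Cd74, -0.69 to 1.84 for H2-Ab1, -0.0241 to 0.16 for Wtip, -0.0448 to 0.53 for Bdnf, -0.0152 to 0.19 for Nptx2 and -0.0946 to 0.0275 for Mkln1. For the interaction it gave -0.24 to 0.90 for Fos, -0.15 to 0.50 for Fosb and -0.59 to 0.12 for Bdnf. The cause was not tested. The median of the rapid activity-induced genes stayed between 0.186 and 0.297, with 10 to 17 at an unadjusted p below 0.05. At 3 counts per library the genes near the floor, Egr2 in 1 house control and Serpina3m in trained mice, have uncertain fold changes.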

Other observations

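Vessel markers were mostly negative in KO, with small values. Endothelial markers were negative in 10 of 12 (median -0.16), 3 of them lower without overlap, beside 4.54% of all genes: Cldn5, a tight junction protein, Pecam1, an endothelial adhesion molecule, and Abcb1a, a drug efflux pump of the blood-brain barrier, with log2 fold changes of -0.36 to -0.21. In WT 12 of 12 were negative with a median of -0.44. Pericyte and smooth muscle markers had a median of -0.04 in KO and -0.66 in WT. The difference between genotypes was not tested for these lists.

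The MHC class II genes Cd74 and H2-Ab1 rested on 1 library. Cd74, the invariant chain of MHC class II, was at 3.47, 2.40 and 6.22 CPM against 1.57, 4.01 and 24.1 CPM in KO, and H2-Ab1, an MHC class II chain, at 1.17, 0.952 and 2.36 CPM against 0.651, 1.20 and 9.45 CPM. Without the third trained library the log2 fold changes were -0.52 for Cd74 and -0.68 for H2-Ab1. Of 28 interferon and antigen presentation genes 12 were positive in KO (median -0.02), with 0 separated without overlap, and 1 in WT (median -0.65).

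Housekeeping lists had values near 0. Nuclear-encoded genes of oxidative phosphorylation were positive in 58 of 72 with a median of 0.03, and cytosolic ribosomal protein genes in 19 of 75 with a median of -0.04. Of 24 cholesterol synthesis genes 16 were positive (median 0.04), with 2 higher without overlap, beside 3.34% of all genes, and 1 lower, beside 4.54%.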
